A study of Homo sapiens with 6 samples.

Results

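Integrins, the proteins they bind on other cells and the proteins that carry their signal were followed in KMM1 cells that had been made to express TAZ. KMM1 is an established human multiple myeloma line, and TAZ, the product of WWTR1, is a co-activator of transcription that the Hippo pathway restrains. Cells received lentivirus expressing TAZ or the same type of virus as an empty vector, WPI, and polyadenylated RNA was taken 4 days later, giving 3 TAZ libraries and 3 control libraries. The labels do not name the promoter of the vector, do not say whether transduced cells were selected, and do not say that the libraries of a group came from separate cultures, so the p-values measure a spread between libraries that may be technical. The set was a list of 37 gene symbols, of 17 alpha chains, 8 beta chains, 5 ligands and 7 signalling proteins. It matched 38 of the 57290 gene identifiers in the files, since ITGB3 stands under 2 identifiers, of which 1 was at 0 in every library.

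An integrin is a pair of one alpha chain and one beta chain that spans the cell membrane and holds the cell to matrix or to a ligand on another cell. The beta chain tail binds talin and kindlin inside the cell, and kinases and scaffold proteins assemble there. Myeloma cells are known to use ITGA4 with ITGB1 or ITGB7 to hold to VCAM1 and fibronectin in the bone marrow, and ITGAL with ITGB2 is the leukocyte integrin that binds the ICAM proteins.

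Levels are given as TPM (the depth per base of a transcript as its share of the whole library), summed over the transcripts of a gene and scaled between libraries. Differences are log2(TPM + 1), TAZ minus control, with the standard error of limma, and p is adjusted by Benjamini-Hochberg over the 19390 genes that averaged 1 TPM or more. Adding 1 TPM makes these differences smaller than the ratio of levels in low genes. Library size ran from 1130.4 to 1608 aligned megabases in TAZ libraries and from 1099.95 to 2033 in controls. WWTR1 itself had 365, 138 and 145 TPM in TAZ libraries 1, 2 and 3, against 2.35, 1.21 and 1.40 TPM in control libraries 1, 2 and 3, the order in which library values are given throughout. Control library 3 lay apart from the other controls on the second principal component, at -74.8 against 37.6 and 3.70.

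Of the 37 symbols, 22 reached the level for testing, and 5 of these passed an adjusted p of 0.05 in limma. ITGB2, ITGB7 and ITGB1BP1 were higher in TAZ cells, and ITGA8 and VCAM1 were lower. ITGB2 was under 1 TPM in every control and entered the test through the TAZ libraries only. Its part in the counts of this paragraph is a description. Over all tested genes 3.21% passed, 2.25% upward and 0.964% downward. Libraries of the groups did not overlap for 9 of the 22 tested members, against 24.9% of all tested genes. TAZ lay above control in 6 of them and below it in 3, where the shares over all tested genes were 10.1% and 14.8%. The median difference was 0.21 over the 22 members, 13 above 0 and 9 below, and -0.05 over all tested genes. Of the members' 477 annotated transcripts, 46 were tested, of which 1 was called higher and 2 lower, against 1.1% and 0.492% of all 29480 tested transcripts (1.59% in either direction). By role, 2 of 5 tested beta chains (ITGB2 among them) and 1 of 6 signalling genes rose. Of the others, 1 of 7 tested alpha chains and 1 of 4 ligands fell.

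**Figure D1:**
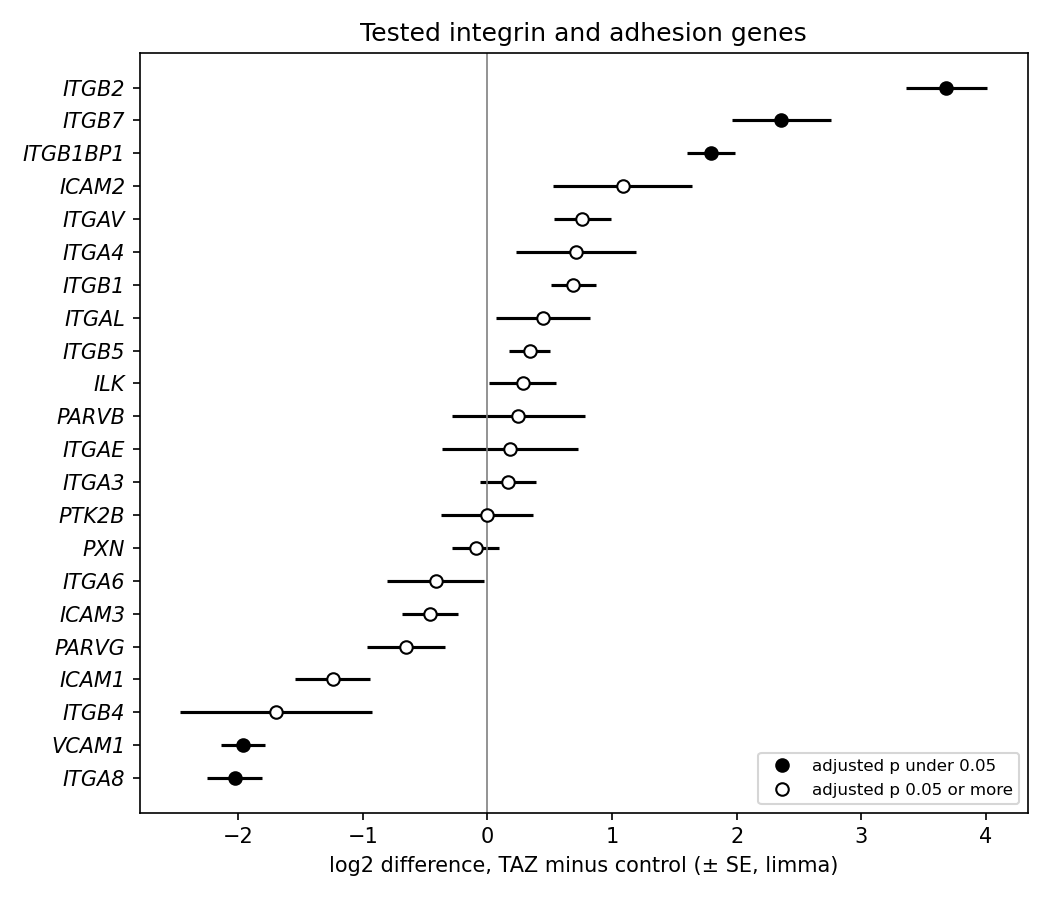
Log2 difference on the log2(TPM + 1) scale, TAZ minus control, with the standard error from limma, for the 22 tested genes, ordered from highest (top) to lowest. Filled points passed an adjusted p of 0.05: ITGB2 at 3.68, ITGB7 at 2.36 and ITGB1BP1 at 1.79 at the top, VCAM1 at -1.96 and ITGA8 at -2.03 at the bottom.

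The upstream sequence of the genes that passed is shown so that their starts can be read side by side. RefSeq (GRCh38.p14) gave an entry for 26 of the 37 symbols and for 4 of the 5 that passed, and the 250 bases before the start are printed here 5′ to 3′ on the strand of the gene. ITGB2 was not matched, and for ITGB1BP1, which has more than 1 start, the most upstream is given. These positions are on GRCh38.p14, whereas the gene positions from the deposited files further on are on hg19. Capitals mark the match to the NF-kB motif, 62 bases before the start of VCAM1.
ITGB7, chr12:53207252-53207501, minus strand: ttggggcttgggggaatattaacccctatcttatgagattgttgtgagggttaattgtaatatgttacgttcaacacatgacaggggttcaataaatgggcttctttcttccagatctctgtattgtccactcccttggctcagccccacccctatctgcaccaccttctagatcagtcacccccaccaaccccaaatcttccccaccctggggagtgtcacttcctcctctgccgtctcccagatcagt
ITGB1BP1, chr2:9423570-9423819, minus strand: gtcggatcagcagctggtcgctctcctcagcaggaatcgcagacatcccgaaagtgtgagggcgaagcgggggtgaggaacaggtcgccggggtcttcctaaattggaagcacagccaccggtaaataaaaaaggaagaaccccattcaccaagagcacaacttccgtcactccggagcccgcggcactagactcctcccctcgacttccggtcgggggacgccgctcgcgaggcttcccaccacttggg
ITGA8, chr10:15719923-15720172, minus strand: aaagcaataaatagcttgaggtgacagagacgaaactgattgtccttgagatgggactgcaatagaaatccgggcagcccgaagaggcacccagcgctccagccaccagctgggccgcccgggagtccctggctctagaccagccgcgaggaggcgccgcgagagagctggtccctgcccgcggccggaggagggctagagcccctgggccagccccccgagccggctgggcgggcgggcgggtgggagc
VCAM1, chr1:100719492-100719741, plus strand: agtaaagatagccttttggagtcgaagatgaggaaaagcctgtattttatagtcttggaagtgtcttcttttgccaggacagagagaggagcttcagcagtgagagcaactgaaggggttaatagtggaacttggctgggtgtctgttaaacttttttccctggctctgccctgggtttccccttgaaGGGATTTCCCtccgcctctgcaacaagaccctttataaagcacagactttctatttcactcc
Motifs were searched on both strands in these windows. GGAATG, the core bound by TEAD factors, the DNA-binding partners of TAZ, was in none of the 4, in 5 of the 36 windows of all members (ICAM3, ITGA10, ITGA5, ITGB1 and PXN) and in 11.9% of all 35116 windows. TGANTCA, the AP-1 core, was in 0 of the 36 and in 6.57% of all. The NF-kB motif was in 7 of the 36 (ITGA1, ITGA10, ITGA11, ITGA5, MADCAM1, PARVB and VCAM1) and in 5.21% of all.

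Among the beta chains, ITGB7 was the most abundant by far in both groups. ITGB7 pairs with ITGA4 to bind MADCAM1 and VCAM1, and with ITGAE to bind E-cadherin. Its gene (ENSG00000139626.11, chr12:53585102-53601091, minus strand, hg19) had 776, 1320.2 and 500.3 TPM in the TAZ libraries, against 129, 133 and 217 TPM in the controls. Every TAZ library lay above every control, and the TAZ libraries spread more widely than the controls. The mean was 865 ± 417 TPM in TAZ cells and 159.9 ± 49.7 TPM in controls (SD, n = 3 each), a log2 difference of 2.36 ± 0.40 (SE) with a limma adjusted p of 0.0302. The call was lost on leaving out any of 4 single libraries, with adjusted p of 0.0807 without TAZ library 1, 0.0786 without TAZ library 2, 0.0963 without control library 1 and 0.113 without control library 2. The log2 difference without 1 library stayed between 1.99 and 2.69. As this is bulk RNA, a change in the number of cells that carry a transcript and a change in its amount per cell cannot be told apart.

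ITGB7 made up 90.3%, 95.3% and 88.8% of the summed TPM of the 8 beta chains in TAZ libraries, against 77.2%, 76.7% and 84.5% in controls. The sum itself was 936 ± 416 TPM in TAZ cells and 199.3 ± 50.1 TPM in controls, so most of the difference in beta chain RNA was ITGB7. The summed alpha chains were close in both groups, at 42.2, 47.8 and 76.3 TPM in TAZ libraries and 49.6, 55.2 and 44.5 TPM in controls. Alpha chain TPM per beta chain TPM was 0.0730 ± 0.0545 in TAZ cells and 0.262 ± 0.0780 in controls. Chains were measured from unlike parts of their exons, as given further on, so this ratio is of TPM as assigned.

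The assignment of ITGB7 to annotated transcripts varied between libraries. The full-length ENST00000267082.5 had 728, 180.4 and 457 TPM in TAZ libraries, against 124, 131 and 171 TPM in controls. TAZ library 2 stood out, with 918 TPM on ENST00000551319.1, a 729-base transcript of the 3′ end that had between 0.916 and 7.09 TPM in the other libraries. A depth per base counts short transcripts as heavily as long ones, so this assignment bears on the gene sum of that library. Weighting transcripts by the bases assigned to them, a setting added after seeing the data, gave a log2 difference of 1.85. That was the lowest of the settings, with a limma adjusted p of 0.0194. The depth over single exons sums all transcripts of the gene, but it too was uneven between neighbouring exons. In the last exon, 16, it was 1661, 886 and 1269.5 in TAZ libraries, against 329, 314 and 391.8 in controls. In exon 3, near the 5′ end, it was 896, 804 and 721 in TAZ libraries, against 134, 139 and 200.2 in controls. Other exons did not show this order. Exon 12 had 1208, 0 and 704 in TAZ libraries, against 196, 107 and 273 in controls, and TAZ library 2 was at 0 in exon 13 as well. Exon 11 had 625, 423 and 1.89 in TAZ libraries, against 59.5, 73.8 and 130.5 in controls, and in exon 10 TAZ library 3, at 66.0, was also below every control. All TAZ libraries lay above all controls in 9 of the 16 exons and below them in 0, and the groups overlapped or were at 0 in the other 7.

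ITGB2, the beta chain shared by the leukocyte integrins, had the largest difference among the members. Its gene (ENSG00000160255.12, chr21:46305868-46351904, minus strand, hg19) had 31.2, 15.6 and 13.4 TPM in the TAZ libraries, against 0.491, 0.367 and 0.782 TPM in the controls. The groups lay far apart. ITGB2 reached the level for testing through the TAZ libraries only, so its call adds no support beyond the levels themselves. The mean was 20.1 ± 9.71 TPM in TAZ cells and 0.547 ± 0.213 TPM in controls (SD, n = 3 each), a log2 difference of 3.68 ± 0.33 with a limma adjusted p of 0.00258. TAZ library 1 was highest in ITGB2 as it was in WWTR1, and 11.8 TPM of its level came from ENST00000475170.1, which was at 0 in the other 5 libraries. On ENST00000498666.1, the transcript that held most of the level, it had 18.2, 15.3 and 13.2 TPM in TAZ libraries, against 0.480, 0.224 and 0.764 TPM in controls. This transcript too reached the level for testing through the TAZ libraries only, so its call adds no support.

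The depth of ITGB2 was seen along the gene and not at one end, but not in every exon. All TAZ libraries were above all controls in 7 of 15 exons of that transcript. Exons 4, 10, 13 and 14 were at 0 in all controls and in 1 or 2 of the TAZ libraries. Exons 5, 7 and 8 were at 0 in all libraries. Exon 9, of 2144 bases, was low and overlapped between groups. It had 0.263, 3.05 and 3.33 in TAZ libraries, against 0.120, 0.126 and 0.289 in controls. Exon 1 had 20.4, 10.9 and 12.4 in TAZ libraries and was at 0 in all controls. Exon 11 had 82.4, 65.0 and 72.6 in TAZ libraries, against 4.63, 0 and 0 in controls. Exon 15, the last, had 50.6, 47.7 and 47.3 in TAZ libraries, against 1.94, 1.68 and 3.78 in controls. An antisense gene, ITGB2-AS1, shares 303 exon bases with ITGB2, 4.46% of its exon length, and touches no exon of that transcript. ITGB2-AS1 averaged 8.87 ± 4.01 TPM in TAZ cells and 0.431 ± 0.281 TPM in controls and had 1 TPM or more in the TAZ libraries only. No source used here says whether strand entered the counting, so reads of the shared bases cannot be told apart.

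**Figure D2:**
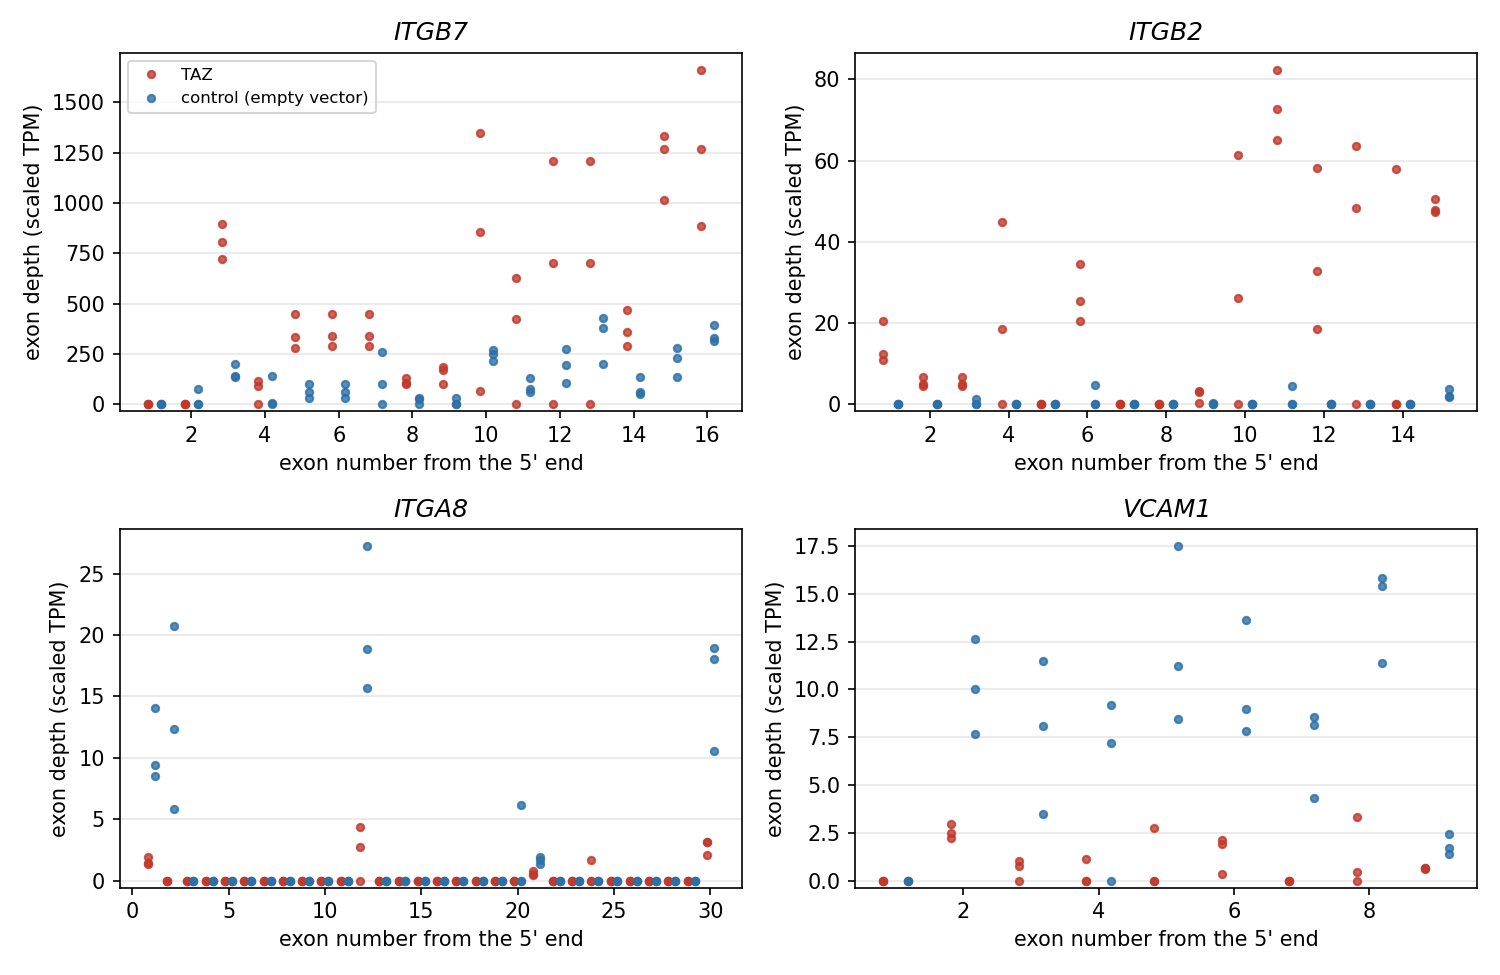
Depth of each exon in scaled TPM (vertical axis, linear, own range in each panel) against exon number from the 5′ end, for ITGB7, ITGB2, ITGA8 and VCAM1, 1 point per library, TAZ left of control. TAZ points lay above all control points in 9 of 16 exons of ITGB7 and 7 of 15 of ITGB2, and below them in 5 of 30 exons of ITGA8 and 7 of 9 of VCAM1.

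Because ITGB2 is shared by the leukocyte integrins, marker genes of blood cells and other cell types were read beside it. The 8 T and NK cell markers summed to between 2.90 and 3.53 TPM in TAZ libraries and between 1.99 and 2.59 TPM in controls, with NKG7 at 0 throughout. The 8 myeloid markers summed to between 1.59 and 1.91 TPM in TAZ libraries and between 3.45 and 5.24 TPM in controls, with CD14 lower in TAZ cells and S100A9 and CD68 at 0 throughout. The 6 B cell markers summed to between 1.84 and 2.21 TPM in TAZ libraries and between 1.73 and 2.31 TPM in controls. Each of these sums was below the level of ITGB2 in any TAZ library. Levels of unlike genes do not give numbers of cells, so the source of the ITGB2 RNA was not tested. The 11 plasma cell markers found summed to between 2857 and 3253 TPM in TAZ libraries and between 2442.5 and 3162 TPM in controls, and SDC1, IRF4 and SLAMF7 among them fell. Of the 10 tested, 1 was higher and 4 lower at an unadjusted p under 0.05 in limma (7.46% and 10.5% of all genes). Every TAZ library lay above every control in 1 of the 10 and below in 5 (10.1% and 14.8% of all genes). The 8 epithelial markers summed to between 977 and 2319 TPM in TAZ libraries and between 204 and 332 TPM in controls, with KRT8, KRT18 and CLDN4 higher and KRT19 at most 0.113 TPM in any library. Of the 6 tested, 3 were higher and 1 lower at the same unadjusted threshold. Every TAZ library lay above every control in 4 of the 6 and below in 1. The 8 fibroblast markers summed to between 38.0 and 44.9 TPM in TAZ libraries and between 2.31 and 3.08 TPM in controls, with LUM and DCN higher. Of the 3 tested, 2 had a log2 difference above 0 and 1 below. At the same unadjusted threshold 2 were higher and 0 lower. KRT18, LUM and DCN were under 1 TPM in every control and entered the test through the TAZ libraries only. The 6 platelet markers summed to between 1.42 and 2.46 TPM in TAZ libraries and between 1.69 and 4.76 TPM in controls, with PF4, PPBP and GP9 at 0 throughout. The 5 endothelial markers found summed to at most 0.321 TPM in any library. The part of these lists in the integrin differences was not tested.

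ITGB1, the most widely shared beta chain, was higher in every TAZ library than in any control but did not pass. The gene (ENSG00000150093.14, chr10:33189247-33294720, minus strand, hg19) had 30.6, 40.3 and 38.4 TPM in TAZ libraries, against 22.0, 24.6 and 19.9 TPM in controls, a log2 difference of 0.69 ± 0.18 with an adjusted p of 0.117. Nearly all of it lay on ENST00000396033.2, and its last exon, 16, had a depth of 25.1, 31.1 and 30.6 in TAZ libraries, against 16.8, 18.9 and 20.7 in controls. ITGB5, a partner of ITGAV that binds vitronectin, had 10.8, 8.57 and 9.68 TPM in TAZ libraries, against 8.12, 6.83 and 7.39 TPM in controls. The groups did not overlap, but the log2 difference of 0.34 ± 0.16 was small (adjusted p = 0.333).

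ITGB4, which pairs with ITGA6 to bind laminin in epithelia, was assigned to different transcripts in different libraries. Its TPM was 9.66 in TAZ library 1 but 0.467 and 0.491 in TAZ libraries 2 and 3, against 6.65, 7.72 and 10.9 TPM in controls. The groups overlapped through TAZ library 1, and the log2 difference was -1.70 ± 0.77 with an adjusted p of 0.311. Without that library it was -2.66 with an adjusted p of 0.0133. The level of TAZ library 1 and the controls lay on 2 short transcripts near the 3′ end of the gene, ENST00000579211.1 of 411 bases and ENST00000578318.1 of 688 bases, both at 0 in TAZ libraries 2 and 3. ENST00000579211.1 had 5.53, 0 and 0 TPM in TAZ libraries and 3.23, 4.10 and 5.27 TPM in controls. In TAZ libraries 2 and 3 nearly all of it lay on ENST00000200181.3, of 5919 bases, at 0.459 and 0.489 TPM. The depth of the last exon of ENST00000578318.1, which sums all transcripts and was its 1 exon with any depth, was 4.60, 3.53 and 3.41 in TAZ libraries, against 3.77, 4.02 and 6.19 in controls. By that measure the groups overlapped and no library stood apart. The libraries with low ITGB4 TPM were those in which the long transcript was assigned. The other beta chains, ITGB3, ITGB6 and ITGB8, had at most 0.823 TPM in any library.

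**Figure D3:**
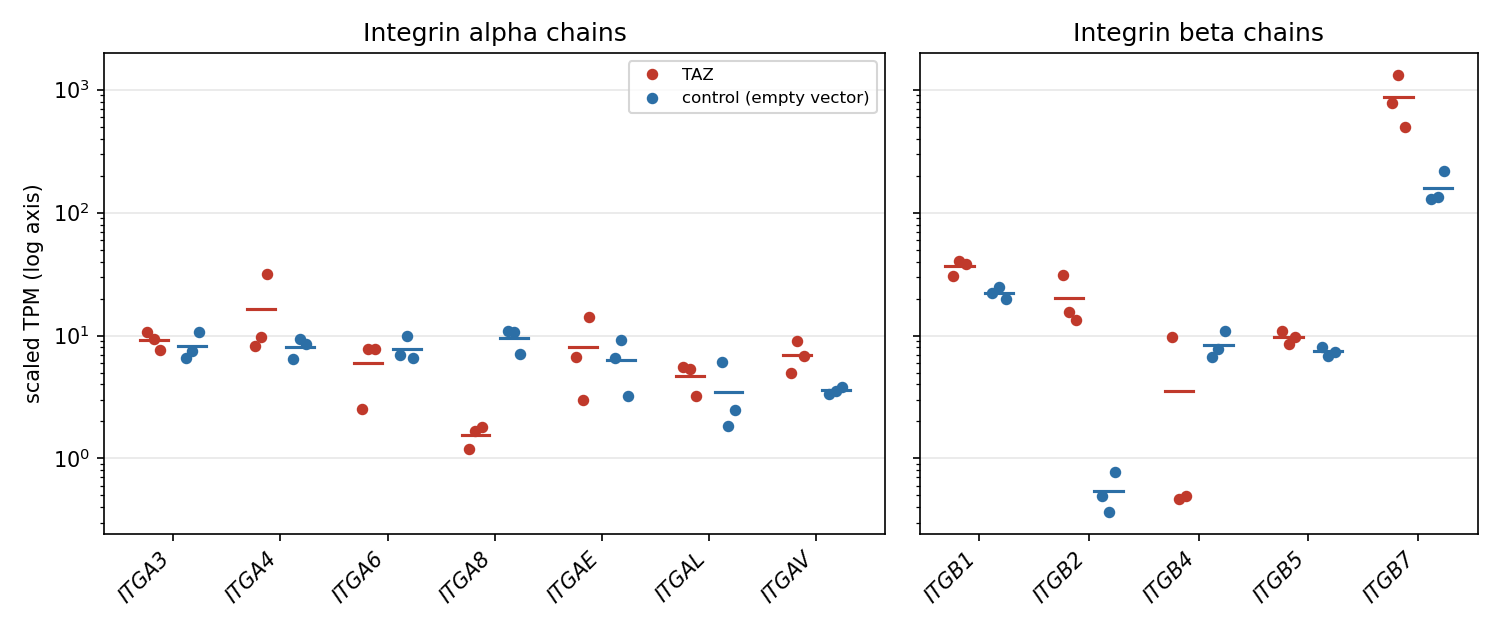
Scaled TPM (log axis) of the 7 tested alpha chains and 5 tested beta chains in each library, TAZ left of control, with the group mean as a line. ITGB7 stands above all other chains in both groups, the ITGB2 points of the groups are far apart, and ITGA8 is the only alpha chain shown with all TAZ points below all controls.

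Among the alpha chains, ITGA8 was the 1 that passed. ITGA8 pairs with ITGB1 and binds matrix proteins such as nephronectin. Its gene (ENSG00000077943.7, chr10:15555948-15762124, minus strand, hg19) had 1.20, 1.69 and 1.81 TPM in TAZ libraries, against 10.98, 10.7 and 7.09 TPM in controls. The groups lay apart, and all 3 TAZ libraries were low. The mean was 1.57 ± 0.319 TPM in TAZ cells and 9.58 ± 2.17 TPM in controls (SD, n = 3 each), a log2 difference of -2.03 ± 0.22 with a limma adjusted p of 0.00506. Its full-length transcript ENST00000378076.3 carried nearly all of this, with 1.21, 1.66 and 1.80 TPM in TAZ libraries, against 10.9, 10.7 and 7.03 TPM in controls (adjusted p = 0.0266). The last exon, 30, had a depth of 2.05, 3.11 and 3.11 in TAZ libraries, against 19.0, 18.1 and 10.6 in controls. Of the TPM of alpha chains that can pair with ITGB1, ITGA8 held 4.06%, 4.32% and 3.14% in TAZ libraries, against 31.0%, 25.3% and 18.6% in controls.

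ITGAV, the alpha chain of the vitronectin receptors, was higher in every TAZ library than in any control. It had 4.92, 9.09 and 6.81 TPM in TAZ libraries, against 3.34, 3.55 and 3.85 TPM in controls. The log2 difference of 0.76 ± 0.23 did not pass (adjusted p = 0.163).

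ITGA4, the alpha chain of the fibronectin and VCAM1 receptors of lymphoid cells, had 8.27, 9.76 and 31.5 TPM in TAZ libraries, against 6.47, 9.46 and 8.45 TPM in controls. TAZ library 3 was high and the others overlapped the controls, with a log2 difference of 0.71 ± 0.48 (adjusted p = 0.474). The excess of TAZ library 3 lay on short transcripts: full-length ENST00000397033.2 had 8.00, 8.87 and 4.84 TPM in TAZ libraries, against 6.15, 6.94 and 8.14 TPM in controls. Its last exon, 28, had a depth of 20.9, 29.3 and 26.9 in TAZ libraries, against 17.4, 24.7 and 29.5 in controls. The ratio of ITGB7 to ITGA4 TPM was 93.8, 135 and 15.9 in TAZ libraries, against 20.0, 14.1 and 25.7 in controls. It overlapped between groups through TAZ library 3. The ratio depends on the TPM of short transcripts, of ITGA4 in TAZ library 3 and of ITGB7 in TAZ library 2.

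The other tested alpha chains overlapped between the groups in gene TPM and did not pass. ITGA3, a laminin receptor chain, had 10.7, 9.31 and 7.69 TPM in TAZ libraries, against 6.55, 7.48 and 10.6 TPM in controls (adjusted p = 0.724). ITGA6, another laminin receptor chain, had 2.55, 7.74 and 7.73 TPM in TAZ libraries, against 6.89, 9.82 and 6.52 TPM in controls (adjusted p = 0.602). Its level was assigned to ENST00000264107.7 in TAZ libraries 1 and 2 and to ENST00000375221.2 in TAZ library 3 and all controls, 2 long transcripts of 5618 and 5927 bases. ITGAL had 5.59, 5.32 and 3.21 TPM in TAZ libraries, against 6.04, 1.85 and 2.48 TPM in controls (adjusted p = 0.569). ITGAE had 6.73, 3.00 and 14.3 TPM in TAZ libraries, against 6.62, 9.17 and 3.19 TPM in controls (adjusted p = 0.888). The spread within each group exceeded the difference between them in both. Exons 1 to 24 of the 31 of ENST00000263087.4 of ITGAE were at 0 in all libraries. Its last exon, 31, had a depth of 30.5, 33.0 and 35.2 in TAZ libraries, against 78.0, 44.1 and 35.9 in controls. Exon 29 had the other order, at 27.5, 9.25 and 38.7 in TAZ libraries, against 4.51, 0 and 8.72 in controls. GSG2 shares 6.41% of the exon bases of ITGAE on the other strand but touches no exon of ENST00000263087.4. It had 13.4 ± 0.245 TPM in TAZ cells and 24.6 ± 4.70 TPM in controls.

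The untested members were 16 identifiers of 15 symbols and lay between 0 and 1.64 TPM. They include ITGA1, ITGA2, ITGA5, ITGA7, ITGA9, ITGA10 and ITGA11, which pair with ITGB1 on matrix proteins, ITGA2B and ITGB3 of the platelet fibrinogen receptor, and ITGAX, an alpha chain of myeloid and dendritic cells. ITGAM, an alpha chain of myeloid cells, was the 1 with any library at 1 TPM or more, at 0.153, 0.239 and 0.481 TPM in TAZ libraries, against 0.951, 1.64 and 0.630 TPM in controls. Every TAZ library was below every control for ITGAM and ITGA2 and above every control for ITGA9 and ITGB6, without a test. ITGA9 had 0.701, 0.0424 and 0.876 TPM in TAZ libraries, against 0.00959, 0.0180 and 0.0330 TPM in controls. ITGA5, the main fibronectin receptor chain, lay between 0.262 and 0.473 TPM in TAZ libraries and between 0.325 and 0.481 TPM in controls.

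Set side by side as textbook pairs, 23 combinations of the listed chains were read by the TPM of the less abundant chain. Protein was not measured. That chain had at least 1 TPM in all TAZ libraries for 9 pairs and in all controls for 9, with 8 pairs in common. These 8 were ITGB1 with ITGA3, ITGA4, ITGA6, ITGA8 or ITGAV, ITGB5 with ITGAV, and ITGB7 with ITGA4 or ITGAE. For ITGAE, depth was seen only in exons near the 3′ end, as given above. Other chains too were measured from unlike parts of their exons, as given further on. Which chain is scarcer, and any ratio between chains, is therefore a reading of TPM as assigned. The last exon of ITGA4 averaged a depth of 25.7 in TAZ cells and 23.9 in controls, against gene levels of 16.5 and 8.12 TPM. The pairs are a description, with no test, and those that share a chain are not independent.

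ITGAL with ITGB2 reached 1 TPM in both chains in TAZ libraries and not in controls. In TAZ cells ITGAL was the scarcer chain, at 4.71 ± 1.31 TPM, and in controls ITGB2 was, at 0.547 ± 0.213 TPM. The ratio of ITGAL to ITGB2 TPM was 0.179, 0.342 and 0.239 in TAZ libraries, against 12.3, 5.04 and 3.17 in controls. ITGA6 with ITGB4 went the other way, with a scarcer chain at 2.55, 0.467 and 0.491 TPM in TAZ libraries, against 6.65, 7.72 and 6.52 TPM in controls, and its order was not that of the exon depth: the depth of the ITGB4 exon given above overlapped between the groups, at 4.60, 3.53 and 3.41 in TAZ libraries, against 3.77, 4.02 and 6.19 in controls.

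ITGA8 was the scarcer chain of its pair with ITGB1 in both groups, at 1.57 ± 0.319 TPM in TAZ cells and 9.58 ± 2.17 TPM in controls. ITGAV with ITGB5 had a scarcer chain at 4.92, 8.57 and 6.81 TPM in TAZ libraries, against 3.34, 3.55 and 3.85 TPM in controls. For ITGB7, the scarcer chain was the alpha partner in every library: ITGA4 averaged 16.5 ± 13.0 TPM in TAZ cells and 8.12 ± 1.52 TPM in controls, and ITGAE averaged 8.00 ± 5.74 TPM in TAZ cells and 6.33 ± 3.00 TPM in controls. The alpha chains that can pair with ITGB1 summed to 0.969, 0.968 and 1.499 times ITGB1 in TAZ libraries, against 1.61, 1.72 and 1.91 times in controls.

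**Figure D4:**
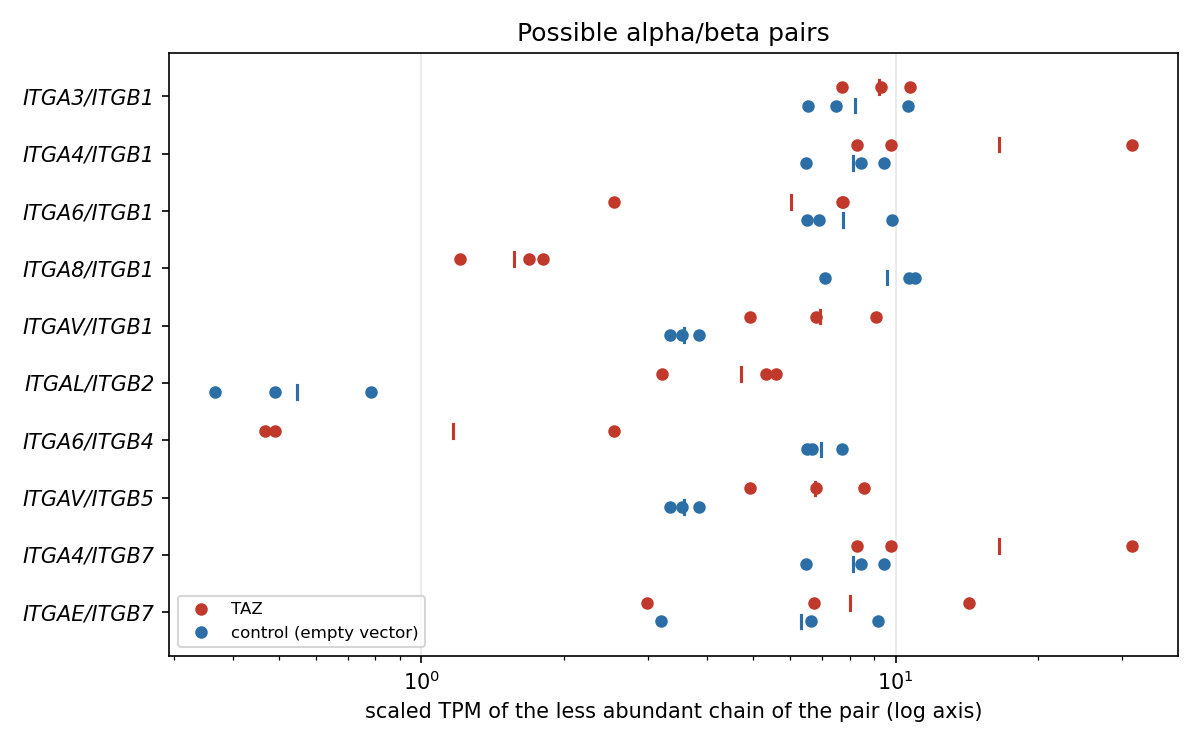
Scaled TPM (log axis) of the less abundant chain of the 10 alpha and beta pairs that reached 1 TPM in all libraries of at least 1 group, 1 point per library, TAZ above control in each row, with the group mean as a bar. TAZ points lay above the controls for ITGAL/ITGB2, ITGAV/ITGB1 and ITGAV/ITGB5, and below them for ITGA8/ITGB1 and ITGA6/ITGB4, the last with ITGB4 assigned to transcripts of unequal length.

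Among the ligands, VCAM1, the cell surface protein bound by ITGA4 with ITGB1 or ITGB7, fell. Its gene (ENSG00000162692.6, chr1:101185298-101204601, plus strand, hg19) had 1.28, 1.42 and 1.24 TPM in TAZ libraries, against 7.84, 9.45 and 6.86 TPM in controls. The TAZ libraries were close together and far below the controls. The mean was 1.31 ± 0.0938 TPM in TAZ cells and 8.05 ± 1.31 TPM in controls (SD, n = 3 each), a log2 difference of -1.96 ± 0.18 with a limma adjusted p of 0.00267. The full-length transcript ENST00000294728.2 had 0.683, 0.740 and 0.566 TPM in TAZ libraries, against 6.37, 6.995 and 5.09 TPM in controls. It reached the level for testing through the controls only, so its call adds no support. All TAZ libraries were below all controls in 7 of its 9 exons. Exon 8, for example, had a depth of 0, 3.33 and 0.468 in TAZ libraries, against 15.4, 15.8 and 11.4 in controls.

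ICAM1, a ligand of the ITGB2 integrins, was lower in every TAZ library than in any control but missed the threshold. It had 192, 105 and 174 TPM in TAZ libraries, against 476, 332 and 296 TPM in controls. The log2 difference was -1.24 ± 0.30 with an adjusted p of 0.0968. In control library 1, 118 TPM lay on ENST00000592686.1, a transcript of 571 bases that had at most 1.38 TPM elsewhere. On the full-length ENST00000264832.3 alone the groups were still apart, at 191, 103 and 173 TPM in TAZ libraries, against 353, 331 and 293 TPM in controls (adjusted p = 0.201). Over exon 7, the longest, the groups overlapped, at 251, 118 and 235 in TAZ libraries, against 179, 423 and 332 in controls.

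ICAM2 and ICAM3, ligands of ITGAL with ITGB2 on blood cells, overlapped between the groups. ICAM2 had 4.10, 15.3 and 8.84 TPM in TAZ libraries, against 2.14, 7.73 and 2.12 TPM in controls (log2 difference 1.08 ± 0.56, adjusted p = 0.360). Its transcript ENST00000578379.1 had 2.44, 6.15 and 7.47 TPM in TAZ libraries and was listed at 0 in the 3 controls, so that it reached the level for testing through the TAZ libraries only. ICAM3 had 7.32, 3.92 and 5.29 TPM in TAZ libraries, against 7.14, 7.84 and 8.36 TPM in controls (adjusted p = 0.339). MADCAM1, the gut ligand of ITGA4 with ITGB7, stayed between 0.172 and 0.211 TPM in TAZ libraries and between 0.0420 and 0.451 TPM in controls.

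**Figure D5:**
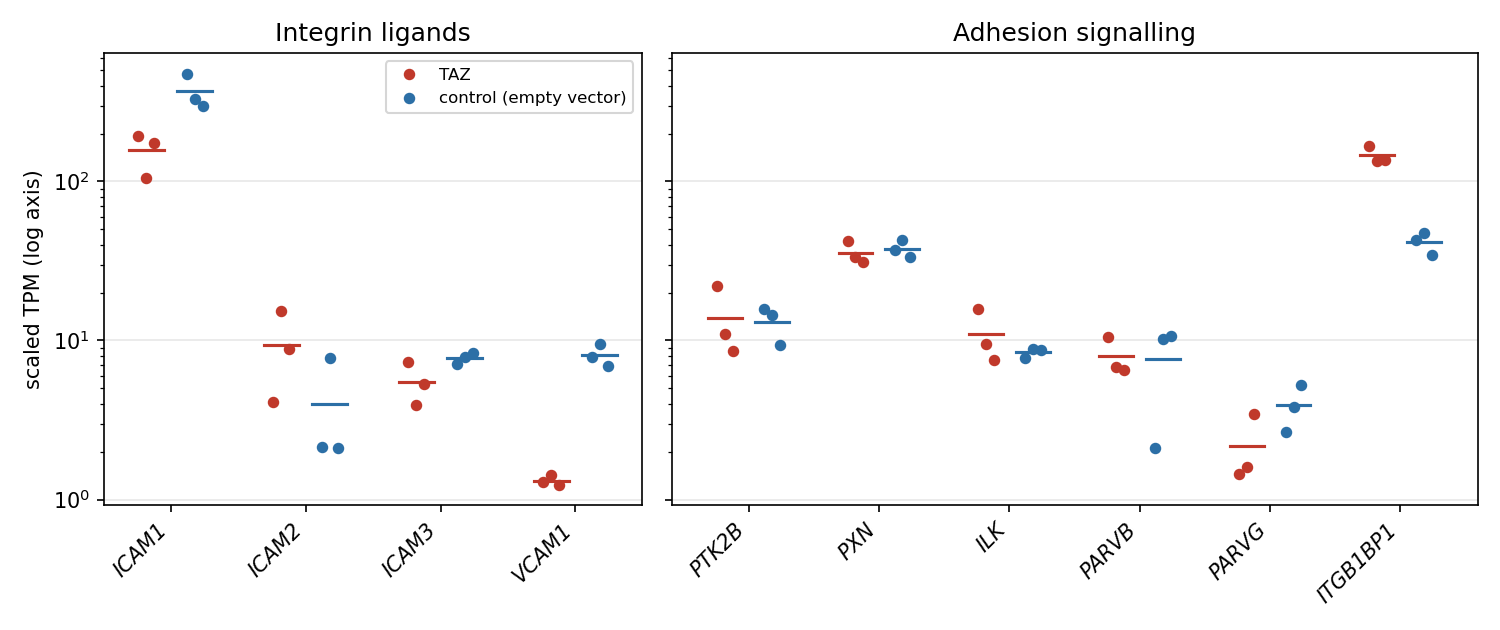
Scaled TPM (log axis) of the 4 tested ligands and the 6 tested signalling genes in each library, TAZ left of control, with the group mean as a line. VCAM1 and ICAM1 have all TAZ points below all controls, ITGB1BP1 has all TAZ points above all controls, and the other genes overlap.

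Of the signalling genes, ITGB1BP1 rose. It encodes ICAP-1, which binds the tail of the ITGB1 chain and keeps the integrin from being switched on. The gene (ENSG00000119185.8, chr2:9543604-9563676, minus strand, hg19) had 167, 134 and 136 TPM in TAZ libraries, against 43.1, 47.3 and 34.3 TPM in controls. The groups lay well apart and each was tight. The mean was 146 ± 18.7 TPM in TAZ cells and 41.6 ± 6.63 TPM in controls (SD, n = 3 each), a log2 difference of 1.79 ± 0.19 with a limma adjusted p of 0.00459. ITGB1BP1 was spread over many transcripts, none of which passed by itself.

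The parts of ITGB1BP1 did not all move alike. Exon 1 of ENST00000360635.3 had a depth of 124, 94.9 and 86.2 in TAZ libraries, against 28.8, 27.5 and 29.4 in controls. Exon 5 had 100.1, 120.3 and 123 in TAZ libraries, against 42.0, 36.6 and 42.3 in controls. The last exon, 8, by far the longest at 3431 bases, overlapped between groups, with 40.6, 1.21 and 40.2 in TAZ libraries, against 1.79, 14.9 and 17.4 in controls. Weighting transcripts by the bases assigned to them, which gives long transcripts more weight, gave a log2 difference of 1.42 with an adjusted p of 0.0662. ASAP2, which shares 33.1% of the exon bases of ITGB1BP1 on the other strand, was at 0.127 ± 0.110 TPM in TAZ cells and 0.127 ± 0.169 TPM in controls.

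The kinases and scaffolds did not pass, and their groups overlapped in gene TPM. PTK2, focal adhesion kinase, was not tested, with 0.441, 0.340 and 0.152 TPM in TAZ libraries, against 0.194, 0.516 and 0.453 TPM in controls. Its relative PTK2B, the PYK2 kinase of blood cells, had 22.0, 10.95 and 8.55 TPM in TAZ libraries, against 15.8, 14.4 and 9.33 TPM in controls (adjusted p = 0.994). PYK2 RNA was thus above that of PTK2 in every library. PXN, the scaffold paxillin, had 42.1, 33.3 and 31.2 TPM in TAZ libraries, against 37.1, 43.0 and 33.4 TPM in controls (log2 difference -0.09 ± 0.19, adjusted p = 0.823).

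ILK and the parvins form a complex that links integrin tails to actin. ILK had 15.8, 9.50 and 7.49 TPM in TAZ libraries, against 7.78, 8.83 and 8.66 TPM in controls (adjusted p = 0.609). TAF10 covers 68.6% of the exon bases of ILK on the other strand and had 36.2 ± 3.21 TPM in TAZ cells and 30.7 ± 1.502 TPM in controls. It touches exons 2 to 12 of ENST00000396751.2 of ILK, which were at 0 in all libraries. Exon 1, which TAF10 does not touch, had a depth of 58.5, 34.8 and 26.8 in TAZ libraries, against 28.9, 32.6 and 32.1 in controls. As 1 of 12 exons carried the depth, the ILK values are uncertain. PARVB had 10.6, 6.78 and 6.53 TPM in TAZ libraries, against 2.09, 10.3 and 10.6 TPM in controls (adjusted p = 0.838). Only 1 of 13 exons of its ENST00000338758.7 had any depth, and there all TAZ libraries lay above all controls. By assigned bases its log2 difference was 0.81, with a limma adjusted p of 0.377. PARVG, the parvin of blood cells, had 1.45, 1.60 and 3.43 TPM in TAZ libraries, against 2.66, 3.82 and 5.24 TPM in controls (adjusted p = 0.333). In gene TPM the groups overlapped for all 3.

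Depth along these genes was uneven. Over 1 transcript of each of the 22 tested members, the one with the most assigned bases, 154 of 244 exons under 150 bases (63.1%) were at 0 in all 6 libraries, as were 26 of 51 exons from 150 up to 200 bases, but only 3 of 80 exons of 200 bases or more (3.75%). Several alpha chains, which are made of many short exons, were measured from a part of their exons. The cause of the exons at 0 was not tested. Any depth was seen in 7 of 30 exons of ITGA8 and of ITGAV, 12 of 28 of ITGA4, 13 of 27 of ITGA6 and 5 of 31 of ITGAE. ITGA3, with depth in 24 of 24 exons, and ITGAL, with 23 of 31, were covered more fully. Exons of a gene share libraries and are not independent, so their counts are a description.

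Genes around the integrins were read from 6 further lists. Over all tested genes, 2.25% passed upward and 0.964% downward after adjustment, and 7.46% were higher and 10.5% lower at an unadjusted p under 0.05. Of 15 tested genes of integrin activation and tail binding, 0 passed in limma, and at an unadjusted p under 0.05 there were 2 higher and 1 lower. TLN1, the talin that switches integrins on, had 31.5, 17.4 and 6.40 TPM in TAZ libraries, against 20.8, 18.2 and 25.6 TPM in controls (adjusted p = 0.677). FERMT3, the kindlin of blood cells, had 9.07, 6.15 and 5.56 TPM in TAZ libraries, against 6.97, 4.49 and 5.06 TPM in controls (adjusted p = 0.574). Both overlapped between groups, and the median log2 difference of the list was 0.01.

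Of 15 tested focal adhesion scaffolds, 2 rose (2.25% of all genes did) and 0 fell. At an unadjusted p under 0.05, 6 were higher and 0 lower (7.46% and 10.5% of all genes), and the median of the list was 0.30 on the log2 scale. VCL, vinculin, which couples talin to actin, had 19.8, 18.0 and 17.1 TPM in TAZ libraries, against 7.84, 9.07 and 6.87 TPM in controls (log2 difference 1.12 ± 0.17, adjusted p = 0.0178). ACTN4, an alpha-actinin that bundles actin, had 301, 309 and 302 TPM in TAZ libraries, against 130.2, 140.2 and 182 TPM in controls (log2 difference 1.02 ± 0.18, adjusted p = 0.0380). In both genes every TAZ library stood above every control. Of 20 tested kinases, adaptors and exchange factors, 1 rose (2.25% of all genes did) and 0 fell, with 3 higher and 1 lower unadjusted (7.46% and 10.5% of all genes), and a median of 0.13. With 20 genes, a count of 1 is near that share. The gene was FYN, a Src family kinase, with 60.9, 49.1 and 49.0 TPM in TAZ libraries, against 22.2, 24.3 and 13.6 TPM in controls (log2 difference 1.39 ± 0.25, adjusted p = 0.0380).

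Of 14 tested further integrin ligands, 1 rose (2.25% of all genes did) and 0 fell, with 4 higher and 2 lower unadjusted (7.46% and 10.5% of all genes), and a median of 0.16. It was CYR61, a secreted matrix protein and known YAP and TAZ target, with 447 ± 30.8 TPM in TAZ cells and 2.00 ± 1.16 TPM in controls (log2 difference 7.29 ± 0.28, adjusted p = 0.000169). Of 10 tested membrane partners of integrins, 2 rose and 0 fell, with 2 higher and 1 lower unadjusted, beside the same shares of all genes, and a median of 0.13. CD47, a partner of ITGB3 integrins and a signal against uptake by macrophages, had 37.3, 43.5 and 40.4 TPM in TAZ libraries, against 15.2, 18.2 and 13.7 TPM in controls (log2 difference 1.31 ± 0.17, adjusted p = 0.0105). PLAUR, the urokinase receptor, had 43.5, 39.4 and 37.3 TPM in TAZ libraries, against 13.5, 14.9 and 10.6 TPM in controls (log2 difference 1.56 ± 0.18, adjusted p = 0.00659). Of 9 tested selectins and other adhesion receptors, 1 rose and 0 fell, with 2 higher and 2 lower unadjusted, beside the same shares, and a median of 0.02. It was CADM1, an immunoglobulin-type adhesion protein, with 65.0, 55.7 and 46.6 TPM in TAZ libraries, against 19.5, 17.5 and 26.9 TPM in controls (log2 difference 1.36 ± 0.22, adjusted p = 0.0277).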

How the data were processed

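The labels give 3 TAZ and 3 empty vector libraries. Per the submitters' processing notes, STAR 2.3.0, Bowtie2 2.0.0 and StringTie 1.3.3b were used on hg19. Per the file headers, StringTie estimated the transcripts of a supplied annotation in each library. The deposited attributes are coverage, FPKM and TPM, other units than counts, so no count test was run, and no source used here says which libraries shared a sequencing chip. Deposited TPM was summed per gene and scaled by the median of ratios over 28148 genes above 0 in all libraries. Genes whose deposited TPM averaged 1 or more entered limma 3.58.1 (R 4.3.3, lmFit then eBayes, trend and robust) as log2(scaled TPM + 1), with Benjamini-Hochberg adjustment at 0.05, and transcripts likewise. The procedure was run on simulated data, drawn as independent noise with the spread of the same fit. Such data do not hold errors in the assignment of reads to transcripts. Exon depth is the deposited exon coverage summed over the transcripts of a gene, on the scaled TPM scale. The members and lists were chosen with earlier results of these data known. All tested members were named, and from other lists the genes that passed, at most 4 per list, with TLN1 and FERMT3. Alternatives covered scaling, pseudocount, filter, unit, moderation, a replicate block and single libraries. Reads that similar or overlapping genes share are divided by StringTie, an error that the SD does not hold.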

Additional observations from a re-analysis of the deposited data

How the results depend on the processing

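Of 16 alternatives, 1, weighting by assigned bases, was added after seeing the data. Over all genes 623 passed; 352 did with no filter, and between 278 and 774 without 1 library, lowest without TAZ library 2. Without scaling the median of all genes moved to 0.17 and the split was 533 higher and 85 lower, against 436 and 187. The members called higher numbered 3, and between 2 and 3 without 1 library. ITGB2 passed in 16 of 16 settings, ITGB1BP1 in 15 and ITGB7 in 10, with a limma adjusted p of 0.094 for ITGB7 with no filter. As ITGB2 entered the main test through the TAZ libraries only, its count of settings adds no support. The members called lower numbered 2, between 2 and 3 without 1 library, and 1 with a minimum of 5 TPM, which removed VCAM1. Member transcripts that passed numbered 3, and 1 with no filter or a minimum of 5 TPM, and between 1 and 4 without 1 library, with 1 without control library 1 or 2.

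Same-numbered libraries did not deviate together (correlations 0.00401, -0.0244 and -0.0549). This does not show whether they were prepared as pairs, which the labels do not say. With the replicate block 236 genes passed, 202 higher and 34 lower, with 2 members higher, 1 lower (VCAM1) and 0 transcripts; adjusted p was 0.14 for ITGB7 and 0.0596 for ITGA8.

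Differences that changed sign were all of genes that did not pass. ITGA6 ran from -0.632 to 0.0154 without 1 library, above 0 without TAZ library 1. ITGAE ran from -0.309 to 0.654, below 0 without TAZ library 3 or control library 3 (-0.186), and was -0.261 by assigned bases. PTK2B was 0.232 without scaling and 0.0112 with quantile normalization, and ran from -0.378 to 0.254 without 1 library. PXN was 0.162 without scaling, 0.00972 with quantile normalization, 0.0312 by assigned bases, and from -0.221 to 0.0012 without 1 library. PARVB ran from -0.382, without control library 1, to 0.571. The cause was not tested. ICAM1, ITGB1 and ITGAV passed in 0 of 16 settings, with differences from -1.41 to -0.98, from 0.61 to 0.94 and from 0.57 to 0.99. The median SE over all genes was 0.24 on the log2 scale, so small differences could not be resolved at this depth and number of libraries.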
